A study of Mus musculus with 9 samples.

Results

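Secreted Wnt proteins, the receptors that bind them and the secreted proteins that intercept them were examined in mouse soleus muscle and in white and brown fat. The set held every gene named Wnt, Fzd, Sfrp or Dkk followed by a digit, together with Lrp5, Lrp6, Frzb and Wif1, and it came to 41 of the 17753 genes in the matrix. These were 19 ligands, 12 receptors and 10 secreted antagonists. The 9 RNA-seq libraries were 3 each of brown fat (BAT), white fat (WAT) and soleus, a hindlimb muscle rich in slow fibres. All came from wild-type C57BL/6J males aged 3 months, with no treatment named. The labels speak of 3 mice without saying which libraries share an animal, and the white fat depot is not named. P-values therefore measure the spread between these libraries, which may be partly technical. In these bulk samples, fewer cells of a type and less RNA per cell cannot be told apart.

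Wnt ligands are lipid-modified glycoproteins that act mainly on nearby cells. In the canonical branch a ligand joins a Frizzled receptor to the co-receptor Lrp5 or Lrp6, beta-catenin escapes destruction, and TCF/LEF factors turn on target genes. Other ligands, typified by Wnt5a and Wnt11, signal mostly without beta-catenin. Sfrp proteins, Frzb and Wif1 bind the ligands themselves, whereas Dkk1, Dkk2 and Dkk4 bind Lrp5 and Lrp6. In fat, canonical signalling through ligands such as Wnt10b is known to hold back adipocyte differentiation. In muscle, Wnt signals are known from development and regeneration.

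The tissue labels were checked against markers. Ucp1, the uncoupling protein of brown fat, was at 3386 to 4108 FPKM in brown fat, 1.45 to 35.7 FPKM in white fat and 0.617 to 4.14 FPKM in soleus. FPKM values are scaled to transcript length and to library total, so levels can be set side by side between genes. Summed fast muscle markers reached 35.0, 275.6 and 144.8 FPKM in brown fat replicates 1, 2 and 3, against 2.83 to 5.65 FPKM in white fat. In soleus the listed slow muscle markers summed to 22920 to 27210 FPKM and the fast ones to 27330 to 32710 FPKM. Adipoq, an adipocyte marker, was at 77.1, 31.8 and 12.4 FPKM in soleus replicates 1, 2 and 3, against 906 to 3067 FPKM in fat. The 9 mesothelial markers, from the cell layer covering visceral fat, summed to 85.9 to 127 FPKM in white fat, 1.39 to 1.61 FPKM in brown fat and 0.604 to 2.87 FPKM in soleus. In brown fat Wt1, Krt8 and Bnc1 were listed at 0. Macrophage markers summed to 482 to 593 FPKM in white fat and to at most 52.4 FPKM in any other library. The 10 progenitor and fibroblast markers summed to 1639 to 1718 FPKM in white fat, 270 to 300 FPKM in brown fat and 420 to 504 FPKM in soleus, with 9 of the 10 called higher in white fat than in brown. The part these cell types have in the differences below was not tested. White fat replicate 2 had the lowest relative depth, set to 1.0, and white fat replicate 3 the highest, 3.58. An exact 0 can be a failed estimate: Fabp4, an abundant fatty acid carrier of adipocytes, was listed at 0 in all 6 fat libraries. Tnnt3, among the fast muscle markers, was listed at 0 in every soleus library and at 5.5 to 49.8 FPKM in brown fat.

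Of the 41 genes, 23 reached at least 1 FPKM in at least 3 libraries and were tested with limma on log2(FPKM + 1), together with all other genes that passed. They were 5 ligands, 11 receptors and 7 antagonists. Another 6 were listed at 0 in all 9 libraries: Wnt3, Wnt3a, Wnt7a, Wnt8a, Dkk1 and Dkk4. Of the 23, 9 passed only through the tissue where they are high, and so had to differ. These were Wnt2b, Fzd2, Fzd5, Sfrp1 and Dkk3 through white fat, and Fzd9, Fzd10, Frzb and Dkk2 through soleus. Sfrp4 likewise reached 1 FPKM in 3 libraries only with white fat counted, and Wnt5b and Wnt9a only with soleus counted. For all of these, differences from the tissue where they are high are therefore given without a p-value. The counts of calls below include them. The heat map of all members shows the ligand block mostly dark and the soleus and white fat columns lit by different genes.

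**Figure D1:**
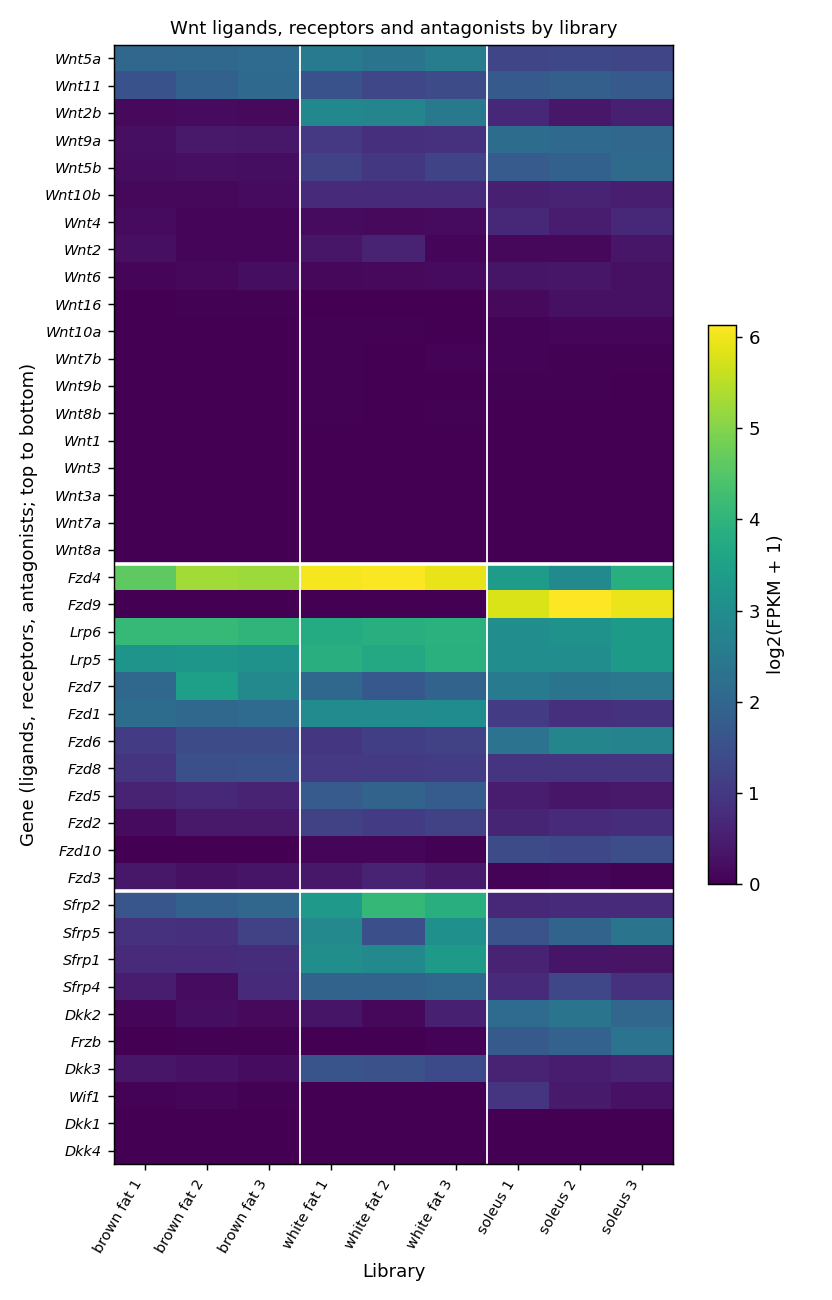
Heat map of log2(FPKM + 1) for the 41 genes (rows; ligands, receptors and antagonists from top to bottom, by falling mean) in the 9 libraries (columns). Fzd4 is bright in both fats, at 23.6 to 67.4 FPKM, and Fzd9 in soleus alone, where it lies between 54.6 and 69.2 FPKM.

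At an adjusted p under 0.05, 14 of the 23 were lower in brown fat than in white fat and 3 were higher, namely Fzd7, Lrp6 and Wnt11. Over all 9913 genes tested, 34.8% were called lower and 38.0% higher, or 72.8% in either direction. Against soleus, brown fat had 8 members higher and 12 lower, with 52.9% and 25.6% of all genes so called and 78.5% in either direction. White fat had 12 members higher and 8 lower than soleus, beside 54.5% and 29.7% of all genes and 84.2% in either direction. The libraries of the groups did not overlap for 18 members between the fats (77.4% of all genes), 19 between brown fat and soleus (81.1%) and 22 between white fat and soleus (85.6%). Most genes thus separated these tissues, and the members did so at much the same rate. The median member difference was -0.64 between brown and white fat (all genes 0.03), -0.25 between brown fat and soleus (all genes 0.29) and 0.52 between white fat and soleus (all genes 0.35). All differences are given as the first-named tissue minus the second, on the log2(FPKM + 1) scale, which understates changes of low genes.

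Scaling mattered for the few members called higher in brown fat than in white. Rescaling each library to the same total (TPM) shifted the median of all genes between the fats from 0.03 to -0.50, and then 0 members were called higher and 16 lower. Between brown fat and soleus, upper quartile and median of ratios scaling each left 5 members higher and 13 lower, with all-gene medians of 0.01 and -0.01. Under the deposited scale 17.6% of the member calls between the fats and 40% of those between brown fat and soleus were for higher. Between the fats the share was 0% with TPM, 12.5% with upper quartile and 17.6% with median of ratios scaling. Between brown fat and soleus it was 40% with TPM and 27.8% with each of the others. Without brown fat replicate 2, the library with most fast muscle RNA, 2 members were higher and 14 lower than in white fat.

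**Figure D2:**
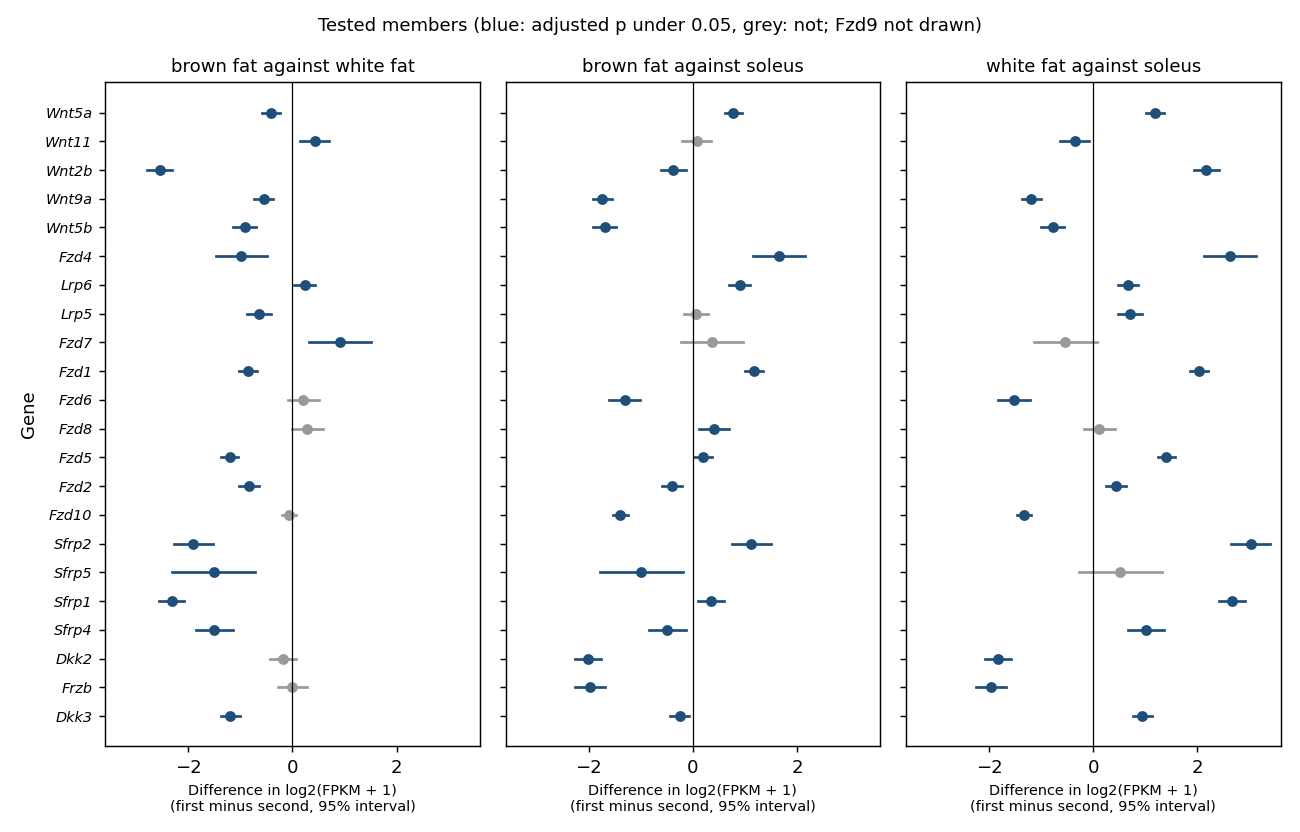
Difference in log2(FPKM + 1) for 22 of the 23 tested members in each comparison (points, with 95% intervals from limma; blue where the adjusted p was under 0.05, grey otherwise). Fzd9 is not drawn because it is listed at 0 in both fats, and Wnt2b lies farthest to the left between the fats, at -2.55. Members that passed the filter only through the tissue where they are high had to differ from it. Sfrp4 also passed only with white fat, and Wnt5b and Wnt9a only with soleus.

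Among the ligands, the highest mean was that of Wnt5a in brown fat, Wnt2b in white fat and Wnt9a in soleus. In white fat replicate 3 Wnt5a exceeded Wnt2b, and in soleus replicate 3 Wnt5b exceeded Wnt9a. The 19 ligands together summed to 5.94 to 7.76 FPKM in brown fat, 14.6 to 16.6 FPKM in white fat and 12.0 to 12.5 FPKM in soleus. Of the 5 tested ligands, brown fat had 1 higher and 4 lower than white fat, and 1 higher and 3 lower than soleus. White fat had 2 higher and 3 lower than soleus. Over all genes, the shares higher and lower were 38.0% and 34.8% between the fats. Against soleus they were 52.9% and 25.6% for brown fat, and 54.5% and 29.7% for white fat.

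Wnt2b, which can act through beta-catenin, was measured at 6.30, 5.92 and 4.62 FPKM in white fat, at 0.115, 0.140 and 0.116 FPKM in brown fat, and at 0.615, 0.312 and 0.457 FPKM in soleus. Every white fat library lay above every other library, and brown fat was lowest. The brown minus white difference was -2.55 (SE 0.11), and the white minus soleus difference was 2.17 (SE 0.11). No test is given because Wnt2b passed the filter only through white fat. Wnt2b made up 31.6% to 40.1% of ligand FPKM in white fat and at most 2.01% in brown fat. St7l, which overlaps Wnt2b in the RefSeq annotation, was higher in brown fat than in white fat (0.55, SE 0.10; limma, adjusted p = 0.00039), the opposite direction. It was also higher in white fat than in soleus (0.59, SE 0.10; limma, adjusted p = 0.00016), the same direction as Wnt2b.

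Wnt5a, the best-known ligand of the beta-catenin-independent branch, was at 3.05, 3.15 and 3.44 FPKM in brown fat, 4.72, 4.10 and 4.97 FPKM in white fat and 1.44, 1.49 and 1.42 FPKM in soleus. The 3 tissues did not overlap. Brown fat differed from white fat by -0.41 (SE 0.08; limma, adjusted p = 0.00067) and from soleus by 0.78 (SE 0.08; limma, adjusted p = 3.2e-06). Because brown fat held few other ligands, Wnt5a was 44.3% to 51.3% of its ligand FPKM.

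Wnt11, also mostly linked to the beta-catenin-independent branch, stood at 1.94, 2.77 and 3.25 FPKM in brown fat, 1.92, 1.46 and 1.68 FPKM in white fat and 2.35, 2.64 and 2.34 FPKM in soleus. It was the most evenly spread ligand: brown fat enclosed the soleus values, and the lowest brown fat library nearly met the highest white fat one. It was called higher in brown than in white fat (0.43, SE 0.13; limma, adjusted p = 0.0098). With TPM this shrank to 0.04 (adjusted p = 0.83). White fat was called lower than soleus (-0.36, SE 0.13; limma, adjusted p = 0.020), which turned to 0.01 with TPM and missed the threshold without white fat replicate 2 (adjusted p = 0.070) or soleus replicate 2 (adjusted p = 0.070).

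Wnt5b and Wnt9a followed the order soleus, white fat, brown fat. Wnt9a, a canonical ligand known from joint formation, was at 3.48, 3.27 and 3.06 FPKM in soleus, 1.03, 0.770 and 0.829 FPKM in white fat and 0.188, 0.339 and 0.309 FPKM in brown fat. Wnt5b, a close relative of Wnt5a, was at 2.39, 2.75 and 3.34 FPKM in soleus, 1.31, 0.985 and 1.39 FPKM in white fat and 0.148, 0.200 and 0.175 FPKM in brown fat. The tissues did not overlap for either gene. For Wnt9a the brown minus soleus difference was -1.74 (SE 0.08) and the brown minus white difference -0.55 (SE 0.08; limma, adjusted p = 0.00010). For Wnt5b they were -1.70 (SE 0.10) and -0.92 (SE 0.10; limma, adjusted p = 1.1e-05). No test against soleus is given because both genes passed the filter only with soleus. Wnt5a thus ran highest in white fat and lowest in soleus, while its relative Wnt5b was highest in soleus. Fbxl14, which overlaps Wnt5b, was lower in soleus than in brown fat, with a difference of 0.92 (SE 0.10; limma, adjusted p = 6.1e-06), the opposite direction to Wnt5b, and between the fats it was not called (-0.17; limma, adjusted p = 0.15).

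The other 14 ligands stayed under 1 FPKM in every library. Wnt10b, the ligand best known for restraining adipogenesis, was at 0.0889, 0.0958 and 0.141 FPKM in brown fat, 0.677, 0.691 and 0.677 FPKM in white fat and 0.455, 0.506 and 0.420 FPKM in soleus. The tissues were apart, and with the filter lowered to 0.1 FPKM brown fat was called lower than white fat (-0.60, SE 0.05; limma, adjusted p = 9.7e-07) and lower than soleus (-0.40, SE 0.05; limma, adjusted p = 1.8e-05). Wnt4 was at 0.628, 0.398 and 0.631 FPKM in soleus and at most 0.141 FPKM in any fat library. At that lower filter Wnt4 and Wnt6 were called lower in both fats than in soleus, with brown minus soleus differences of -0.51 and -0.17. Wnt16 passed that filter only through soleus and so had to differ. It was at 0.116, 0.202 and 0.210 FPKM in soleus and at most 0.02 FPKM in fat. Wnt2 ranged from 0.0611 to 0.534 FPKM over the 9 libraries and was called in no comparison. The remaining Wnt1, Wnt7b, Wnt8b, Wnt9b and Wnt10a peaked at 0.0134, 0.0508, 0.0201, 0.0296 and 0.0762 FPKM.

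**Figure D3:**
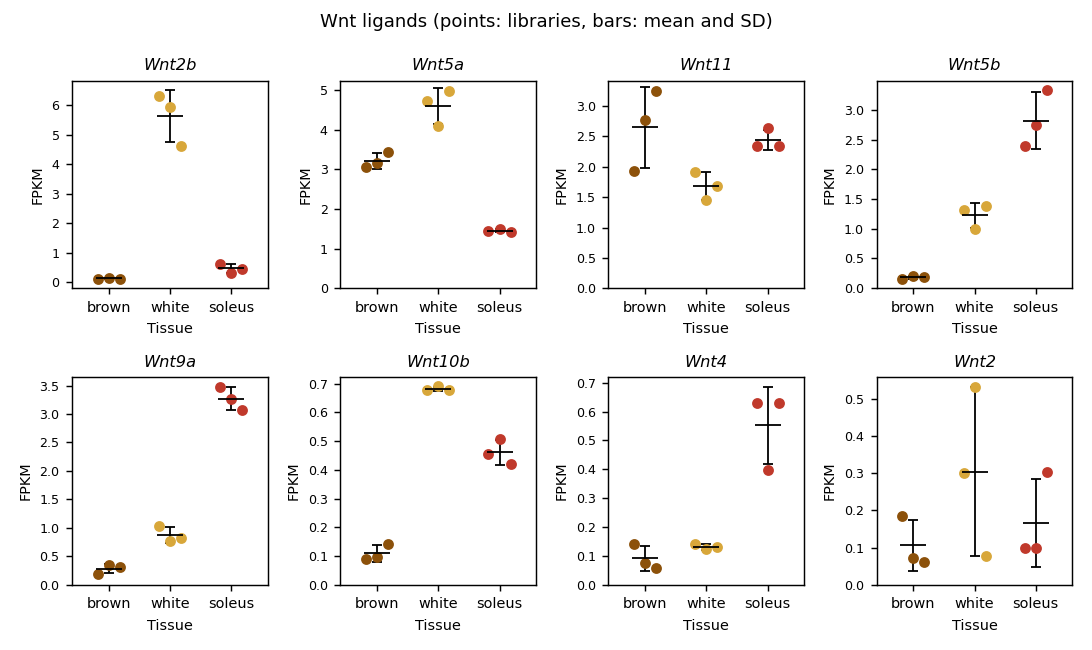
FPKM of 8 ligands by tissue (points are libraries, bars the mean and SD of 3; each panel has its own axis). Wnt2b stands out in white fat, Wnt9a, Wnt5b and Wnt4 in soleus, and Wnt11 is the most even of the 5 that were tested.

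Several Wnt genes are neighbours in the RefSeq annotation, and their levels were set side by side. Wnt9a at up to 3.48 FPKM adjoins Wnt3a, listed at 0 throughout. Wnt10b at up to 0.691 FPKM adjoins Wnt1 at no more than 0.0134 FPKM. Wnt6 and Wnt10a, and Wnt9b and Wnt3, were low or at 0 as pairs. In the first 2 pairs, then, 1 gene was measurable and its neighbour was at or near 0.

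The Frizzled receptors, whose outer domain binds the ligand, were dominated by a single gene in each tissue. Fzd4, also the receptor for norrin in blood vessels, led in both fats and Fzd9 in soleus. Summed FPKM of the 10 Frizzled genes was 33.4 to 55.8 in brown fat, 76.4 to 83.3 in white fat and 77.3 to 90.1 in soleus. Of the 11 tested receptors, co-receptors included, brown fat had 2 higher and 5 lower than white fat, and 5 higher and 4 lower than soleus. White fat had 6 higher and 3 lower than soleus. Over all genes, the shares higher and lower were 38.0% and 34.8% between the fats. Against soleus they were 52.9% and 25.6% for brown fat, and 54.5% and 29.7% for white fat.

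Fzd4 was measured at 23.6, 37.9 and 36.4 FPKM in brown fat, 64.8, 67.4 and 60.1 FPKM in white fat and 9.39, 6.65 and 13.7 FPKM in soleus. The tissues were fully apart, with white fat highest. The brown minus white difference was -0.98 (SE 0.22; limma, adjusted p = 0.0024), and brown fat exceeded soleus by 1.65 (SE 0.22; limma, adjusted p = 4.7e-05). As a share of Frizzled FPKM, which does not depend on library scaling, Fzd4 held 68.0% to 71.5% in brown fat, 78.8% to 81.0% in white fat and 7.38% to 15.4% in soleus. The 6 endothelial markers summed to 96.2 to 99.0 FPKM in brown fat, 44.3 to 68.6 FPKM in white fat and 47.3 to 52.3 FPKM in soleus. They were called higher in brown fat for 5 of 6 against white fat and 6 of 6 against soleus, and their part in the Fzd4 level was not tested. Tmem135, which overlaps Fzd4, was higher in brown than in white fat (0.63, SE 0.10; limma, adjusted p = 0.00017), opposite to Fzd4. Against soleus it went the same way as Fzd4, being higher in brown fat by 3.03 and in white fat by 2.40.

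Fzd9 was at 54.6, 69.2 and 60.5 FPKM in soleus and was listed at 0 in all 6 fat libraries. Those zeros may be failed estimates, and the Frizzled sums and shares in fat take them as 0. The highest value of any member in any library was that of Fzd9 in soleus replicate 2, and no fold is given against values of 0. It held 68.1% to 76.8% of the Frizzled FPKM in soleus. Fzd10 likewise was at 1.63, 1.51 and 1.74 FPKM in soleus, at 0 in all brown fat libraries and at 0.0635, 0.0531 and 0.0203 FPKM in white fat. The white minus soleus difference of Fzd10 was -1.33 (SE 0.06). Whether counting used the strand is not given in the sources used here, so reads of Fzd10 and of its antisense neighbour Fzd10os cannot be told apart. Fzd6, a receptor tied to planar cell polarity, was the third soleus-high Frizzled, at 4.03, 5.92 and 5.64 FPKM against 1.10, 1.68 and 1.68 FPKM in brown fat and 0.952, 1.21 and 1.26 FPKM in white fat. Soleus stood above both fats, with a brown minus soleus difference of -1.31 (SE 0.14; limma, adjusted p = 5.1e-06), and the fats overlapped.

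**Figure D4:**
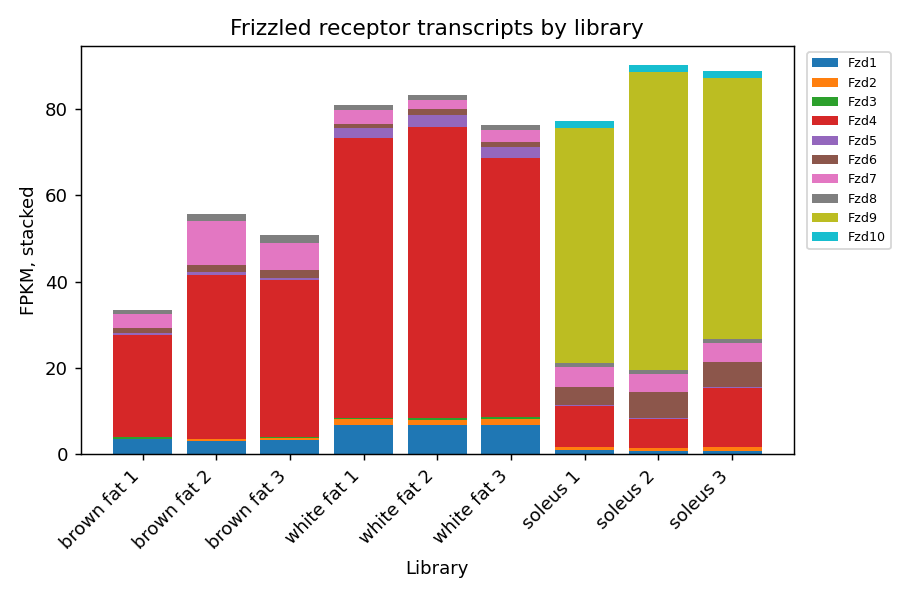
Stacked bars of FPKM for the 10 Frizzled genes in each library. The Fzd4 segment fills 68.0% to 81.0% of the fat bars, and the Fzd9 segment 68.1% to 76.8% of the soleus bars.

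Promoters of the soleus-high members are shown because these genes were high together in 1 tissue, with those of Fzd4 and Wnt2b, the Frizzled and the ligand with the highest mean in white fat, for contrast. They are RefSeq sequences on build GRCm38.p6, running from 250 bases before to 50 bases after the annotated start, 5′ to 3′ on the gene's strand, and 27 of the 41 members had one. Where a gene has several starts the first listed was used, as for Wnt5b, which has 3. Capitals mark CAGCTG, an E-box of the kind bound by muscle regulatory factors, and CTTTGA or its reverse complement TCAAAG, the core letters of TCF/LEF sites. Both strands were searched, and the motifs do not overlap. Fzd9 lies at chr5:135250998-135251297 (minus strand), Fzd10 at chr5:128600856-128601155 (plus), Wnt9a at chr11:59306680-59306979 (plus), Wnt5b at chr6:119544298-119544597 (minus), Frzb at chr2:80447347-80447646 (minus) and Dkk2 at chr3:132085042-132085341 (plus). Fzd4 lies at chr7:89404116-89404415 (plus) and Wnt2b at chr3:104961660-104961959 (minus).
Fzd9: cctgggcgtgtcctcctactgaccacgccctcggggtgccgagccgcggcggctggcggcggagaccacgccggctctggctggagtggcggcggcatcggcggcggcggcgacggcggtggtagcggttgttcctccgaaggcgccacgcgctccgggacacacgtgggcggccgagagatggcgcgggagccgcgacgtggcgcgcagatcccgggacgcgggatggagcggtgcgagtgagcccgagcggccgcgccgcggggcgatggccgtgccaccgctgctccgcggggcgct
Fzd10: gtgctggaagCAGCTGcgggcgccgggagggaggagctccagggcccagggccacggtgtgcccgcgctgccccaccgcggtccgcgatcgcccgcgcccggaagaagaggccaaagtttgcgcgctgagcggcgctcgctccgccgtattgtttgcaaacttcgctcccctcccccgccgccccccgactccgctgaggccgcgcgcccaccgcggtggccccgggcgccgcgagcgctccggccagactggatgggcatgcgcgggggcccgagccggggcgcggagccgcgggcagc
Wnt9a: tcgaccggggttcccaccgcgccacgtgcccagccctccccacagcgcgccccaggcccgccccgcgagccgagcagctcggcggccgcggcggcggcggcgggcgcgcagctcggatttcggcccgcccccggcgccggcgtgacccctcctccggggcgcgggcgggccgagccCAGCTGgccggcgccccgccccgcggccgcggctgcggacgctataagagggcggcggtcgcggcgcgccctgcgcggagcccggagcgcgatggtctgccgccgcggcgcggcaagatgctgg
Wnt5b: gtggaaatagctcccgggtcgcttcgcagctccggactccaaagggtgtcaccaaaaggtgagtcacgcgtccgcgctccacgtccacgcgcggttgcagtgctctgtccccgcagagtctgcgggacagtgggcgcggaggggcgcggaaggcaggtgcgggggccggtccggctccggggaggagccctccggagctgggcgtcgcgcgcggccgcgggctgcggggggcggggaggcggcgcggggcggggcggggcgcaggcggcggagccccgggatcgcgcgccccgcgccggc
Frzb: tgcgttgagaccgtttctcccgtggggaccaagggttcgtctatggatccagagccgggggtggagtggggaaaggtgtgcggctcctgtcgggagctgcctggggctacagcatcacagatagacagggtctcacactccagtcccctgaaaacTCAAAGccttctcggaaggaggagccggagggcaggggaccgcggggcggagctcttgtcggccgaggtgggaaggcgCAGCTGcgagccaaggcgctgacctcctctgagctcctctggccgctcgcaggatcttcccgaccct
Dkk2: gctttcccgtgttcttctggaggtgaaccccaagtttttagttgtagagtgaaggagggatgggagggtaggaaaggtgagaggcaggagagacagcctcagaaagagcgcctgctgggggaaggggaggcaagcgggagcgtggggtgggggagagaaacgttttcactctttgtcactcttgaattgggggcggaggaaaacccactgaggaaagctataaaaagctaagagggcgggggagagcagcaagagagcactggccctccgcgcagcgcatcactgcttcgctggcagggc
Fzd4: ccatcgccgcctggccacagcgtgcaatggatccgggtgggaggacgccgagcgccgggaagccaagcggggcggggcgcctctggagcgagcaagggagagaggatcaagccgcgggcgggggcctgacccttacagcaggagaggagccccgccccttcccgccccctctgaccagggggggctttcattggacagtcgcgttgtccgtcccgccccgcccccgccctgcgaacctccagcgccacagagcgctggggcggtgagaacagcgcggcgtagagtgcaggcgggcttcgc
Wnt2b: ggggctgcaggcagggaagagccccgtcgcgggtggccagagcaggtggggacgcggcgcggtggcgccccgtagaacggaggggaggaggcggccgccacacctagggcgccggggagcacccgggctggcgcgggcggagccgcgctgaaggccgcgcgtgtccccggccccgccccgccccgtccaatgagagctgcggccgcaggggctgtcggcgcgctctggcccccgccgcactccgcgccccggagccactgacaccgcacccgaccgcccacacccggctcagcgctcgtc

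CAGCTG was found in Fzd10 at position -240, in Wnt9a at -74 and in Frzb at -17, counting from the annotated start as 0. TCAAAG was found in Frzb at -95, and CTTTGA at -71 from the third start of Wnt5b, which is not shown. Among tested members with a promoter, CAGCTG was in 3 of the 6 that were highest in soleus and in 0 of the 8 highest in a fat. The TCF/LEF letters were in 1 of those 6 and 2 of those 8. Over 13599 promoters of genes in the matrix, 15.5% held CAGCTG and 14.5% held CTTTGA on either strand, and of the 27 members 11.1% and 14.8% did. Fzd9, Dkk2 and the first start of Wnt5b, all high in soleus, held neither motif in this window. A match is a description of the letters only. The members' windows had a median of 70.7% G and C and 27 CpG pairs, against 57.67% and 15 over all genes, and Wnt9a had 58 CpG pairs against 11 in Dkk2.

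Fzd1, Fzd5, Fzd2 and Fzd3 had their highest mean in white fat. Fzd1, a canonical receptor, was at 3.52, 3.10 and 3.40 FPKM in brown fat, 6.81, 6.80 and 6.88 FPKM in white fat and 1.10, 0.799 and 0.863 FPKM in soleus. The libraries of a tissue lay close together with no overlap between tissues, giving a brown minus white difference of -0.85 (SE 0.08; limma, adjusted p = 2.1e-06) and a brown minus soleus difference of 1.18 (SE 0.08; limma, adjusted p = 1.0e-07). Fzd5 was at 2.41, 2.89 and 2.43 FPKM in white fat, 0.511, 0.621 and 0.511 FPKM in brown fat and 0.409, 0.299 and 0.337 FPKM in soleus. Brown fat was lower than white fat by -1.21 on the log2 scale (SE 0.08). Its small excess over soleus (0.20, SE 0.08; limma, adjusted p = 0.033) was not called without brown fat replicate 2 or 3 or soleus replicate 2 or 3, at adjusted p = 0.051 to 0.11, nor with a pseudocount of 5, upper quartile or median of ratios scaling, at 0.12, 0.35 and 0.38. Fzd2 was at 1.32, 1.12 and 1.31 FPKM in white fat, 0.554, 0.670 and 0.758 FPKM in soleus and 0.126, 0.331 and 0.332 FPKM in brown fat. For Fzd2, brown fat was called lower than soleus (-0.40, SE 0.09; limma, adjusted p = 0.0016). Fzd3 was under 1 FPKM in every library and at most 0.0531 FPKM in soleus, and at the 0.1 FPKM filter was higher in both fats than in soleus, with differences of 0.28 for brown fat and 0.41 for white fat (limma, adjusted p = 0.0013 and 7.2e-05).

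Fzd7, a receptor known from muscle stem cells, was uneven in brown fat. It was at 3.21, 10.1 and 6.38 FPKM there, at 3.17, 2.22 and 2.88 FPKM in white fat and at 4.66, 4.16 and 4.41 FPKM in soleus. The brown fat values had the order of the summed fast muscle markers there, which were 35.0, 275.6 and 144.8 FPKM. In soleus those markers summed to 27330 to 32710 FPKM, and their part in the Fzd7 level was not tested. Muscle stem cell markers summed to 22.4 to 23.6 FPKM in soleus, 0.294 to 0.417 FPKM in brown fat and 3.14 to 3.91 FPKM in white fat. Chrd made up most of the sums in fat. Unlike the rest of the list it was higher in white fat, with a mean of 3.505 FPKM, than in soleus, with 1.467 FPKM. Myf5 was at 0 in both fats. Brown fat was called higher than white fat (0.91, SE 0.27; limma, adjusted p = 0.011), and with TPM it was not (0.50, adjusted p = 0.15). Against soleus brown fat was called only without its replicate 1 (0.74, adjusted p = 0.0020; with all libraries 0.37, adjusted p = 0.22). White fat lay below soleus with no overlap and was not called (-0.54, SE 0.27; limma, adjusted p = 0.087), but without brown fat replicate 1 or 2 it was, at adjusted p = 0.0061 and 0.019. It was also called with upper quartile scaling, median of ratios scaling or those tissues alone in the fit (adjusted p = 0.028, 0.0088 and 0.0012). Fzd8 showed the same low first library, at 0.935, 1.83 and 1.92 FPKM in brown fat, 1.04, 1.07 and 1.09 FPKM in white fat and 0.920, 0.892 and 0.889 FPKM in soleus. It was not called between the fats (0.29, SE 0.13; limma, adjusted p = 0.074) unless brown fat replicate 1 was left out (0.48, adjusted p = 0.00017). Its excess over soleus (0.41, SE 0.13; limma, adjusted p = 0.016) was lost without brown fat replicate 2 or 3, at adjusted p = 0.064 and 0.072, and with upper quartile or median of ratios scaling, at 0.17 and 0.21.

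The co-receptors Lrp5 and Lrp6, which start the beta-catenin branch, were well expressed everywhere and differed in balance. Lrp5 was at 8.07, 8.45 and 7.67 FPKM in brown fat, 13.6, 12.1 and 13.8 FPKM in white fat and 6.99, 6.99 and 9.17 FPKM in soleus. Lrp6 was at 16.1, 16.3 and 15.1 FPKM in brown fat, 12.7, 13.3 and 14.04 FPKM in white fat and 7.09, 7.94 and 9.16 FPKM in soleus. In brown fat Lrp6 outweighed Lrp5, and in the other tissues they were close: Lrp5 was 33.4% to 34.2% of their sum there, 47.7% to 51.7% in white fat and 46.8% to 50.1% in soleus. Brown fat had less Lrp5 than white fat (-0.64, SE 0.10; limma, adjusted p = 0.00018). Its small excess of Lrp6 (0.23, SE 0.09; limma, adjusted p = 0.035) turned to -0.34 with TPM, and was not called without brown fat replicate 1 or 2 or white fat replicate 1 or 2 (adjusted p = 0.073 to 0.11), or with upper quartile scaling (adjusted p = 0.41). Lrp6 exceeded soleus by 0.90 in brown fat (SE 0.09; limma, adjusted p = 3.3e-06) and by 0.67 in white fat (SE 0.09; limma, adjusted p = 3.2e-05). Lrp5 in brown fat overlapped soleus (0.07, 95% interval -0.16 to 0.29; limma, adjusted p = 0.57), and turned to -0.27 and -0.30 with upper quartile and median of ratios scaling.

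The secreted antagonists were at their highest in white fat, where the Sfrp genes led, while in soleus Dkk2, Frzb and Sfrp5 led. The 10 antagonists summed to 27.8 to 35.3 FPKM in white fat, 10.9 to 13.8 FPKM in soleus and 4.45 to 6.15 FPKM in brown fat. Of the 7 tested, brown fat had 0 higher and 5 lower than white fat, and 2 higher and 5 lower than soleus. White fat had 4 higher and 2 lower than soleus. Over all genes, the shares higher and lower were 38.0% and 34.8% between the fats. Against soleus they were 52.9% and 25.6% for brown fat, and 54.5% and 29.7% for white fat.

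Sfrp1, Sfrp2, Sfrp4 and Sfrp5 share a Frizzled-like domain with which they bind ligands. Sfrp2 was at 2.11, 2.71 and 3.07 FPKM in brown fat, 9.01, 15.8 and 13.7 FPKM in white fat and 0.629, 0.670 and 0.664 FPKM in soleus. Sfrp1 was at 0.685, 0.698 and 0.754 FPKM in brown fat, 7.12, 6.66 and 9.08 FPKM in white fat and 0.518, 0.279 and 0.256 FPKM in soleus. White fat stood above all other libraries for both, brown fat next and soleus lowest. The brown minus white differences were -1.91 for Sfrp2 (SE 0.17; limma, adjusted p = 1.8e-06) and -2.32 for Sfrp1 (SE 0.11). For brown fat against soleus they were 1.12 (SE 0.17; limma, adjusted p = 9.7e-05) and 0.35 (SE 0.11; limma, adjusted p = 0.014). The latter was lost without soleus replicate 2 or 3, at adjusted p = 0.052 and 0.053, and with a pseudocount of 5, upper quartile or median of ratios scaling, at 0.18, 0.16 and 0.11. Summed progenitor and fibroblast markers took the same place in white fat, at 1639 to 1718 FPKM, but were higher in soleus than in brown fat.

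Sfrp4 was at 0.411, 0.157 and 0.680 FPKM in brown fat, 2.89, 2.88 and 3.12 FPKM in white fat and 0.668, 1.48 and 0.828 FPKM in soleus. White fat was again apart from the others, and brown fat overlapped soleus by a single value. The brown minus white difference was -1.50 (SE 0.16), with no test given because Sfrp4 passed the filter only with white fat. Against soleus it was -0.49 (SE 0.16; limma, adjusted p = 0.015), and not called without brown fat replicate 2 or soleus replicate 2, with adjusted p = 0.063 for each. Sfrp5, described in fat as an antagonist of Wnt5a, was at 0.829, 0.785 and 1.31 FPKM in brown fat, 6.44, 1.80 and 7.40 FPKM in white fat and 1.96, 2.86 and 4.17 FPKM in soleus. White fat replicate 2 lay far below the other white fat libraries and below the soleus range. Brown fat was still below every other library, with a brown minus white difference of -1.51 (SE 0.36; limma, adjusted p = 0.0030). Against soleus the brown fat difference was -0.99 (SE 0.36; limma, adjusted p = 0.026), and it was not called without brown fat replicate 1 or 2 or soleus replicate 2 or 3, at adjusted p = 0.061 to 0.10, nor with a pseudocount of 5 or no filter, at 0.070 and 0.061. White fat against soleus was not called (0.52, 95% interval -0.27 to 1.32; limma, adjusted p = 0.19), but it was with TPM (1.11, adjusted p = 0.031) or without white fat replicate 2 (1.02, adjusted p = 0.0010). The same library had the lowest depth, at 1.0 against 1.39 and 3.58 in the other white fat libraries. Summed markers of epididymal epithelium were low there too: 0.0691 FPKM, while replicate 1 had 1.47 FPKM and replicate 3 had 1.24 FPKM. Only Cdh16 and Pax8 of that list were above 0 in white fat. The part of depth or of such cells in the Sfrp5 level was not tested.

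**Figure D5:**
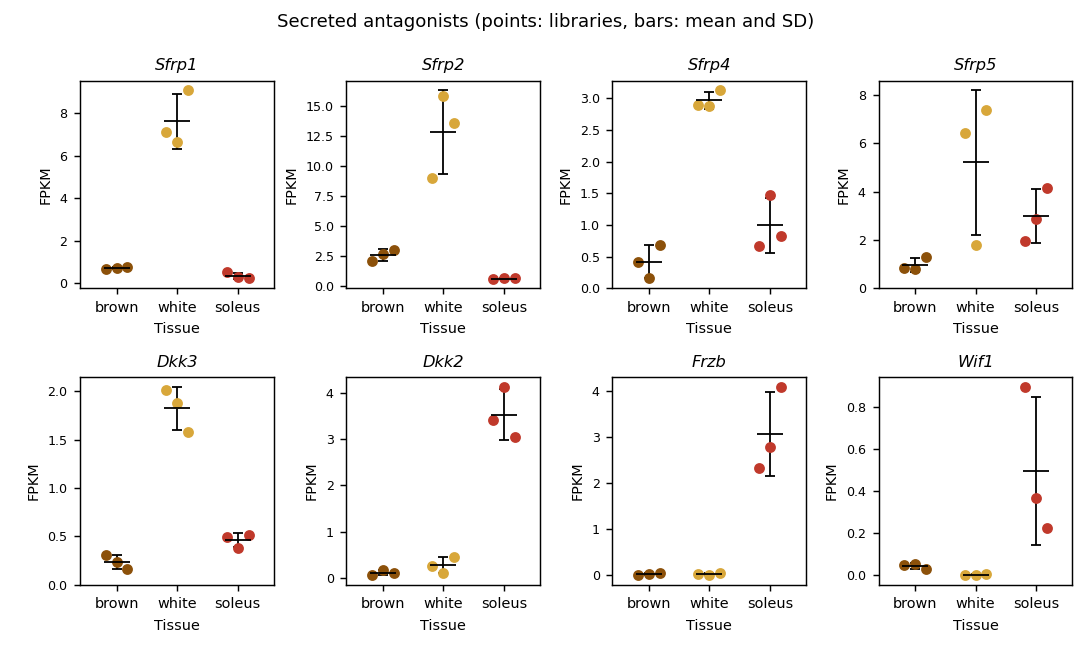
FPKM of 8 secreted antagonists by tissue (points are libraries, bars the mean and SD of 3; each panel has its own axis). Sfrp1, Sfrp2, Sfrp4 and Dkk3 are highest in all 3 white fat libraries, Dkk2, Frzb and Wif1 in all 3 soleus libraries, and white fat replicate 2 falls away for Sfrp5.

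Dkk3, a divergent member of its family that does not act on Lrp5 and Lrp6 as the others do, was at 0.303, 0.237 and 0.157 FPKM in brown fat, 2.02, 1.88 and 1.58 FPKM in white fat and 0.495, 0.381 and 0.513 FPKM in soleus. White fat was highest and brown fat lowest, with a brown minus white difference of -1.20 (SE 0.08). Brown fat was called lower than soleus (-0.25, SE 0.08; limma, adjusted p = 0.017), though not without brown fat replicate 3 (adjusted p = 0.069) or with a pseudocount of 5 (adjusted p = 0.067).

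Dkk2, which binds Lrp5 and Lrp6, had the opposite place. It was at 3.41, 4.13 and 3.04 FPKM in soleus, 0.0618, 0.166 and 0.113 FPKM in brown fat and 0.270, 0.101 and 0.450 FPKM in white fat. Soleus was far above both fats, which overlapped. The brown minus soleus difference was -2.02 (SE 0.11) and the white minus soleus difference -1.83 (SE 0.11). Between the fats Dkk2 was not called (-0.19, SE 0.11; limma, adjusted p = 0.17), but it was with TPM (-0.67, adjusted p = 0.019) or without white fat replicate 2 (-0.29, adjusted p = 0.040).

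Frzb, a ligand-binding antagonist first known from cartilage, was at 2.31, 2.78 and 4.08 FPKM in soleus and at most 0.0465 FPKM in any fat library. The brown minus soleus difference was -1.97 (SE 0.13). Wif1, which binds ligands through its own domain, was at 0.897, 0.367 and 0.225 FPKM in soleus and at most 0.0544 FPKM in fat. Soleus was above the fats for both genes, but Frzb was highest in soleus replicate 3 and Wif1 in soleus replicate 1. Summed tendon and bone markers were 96.1, 72.7 and 53.5 FPKM in soleus replicates 1, 2 and 3, the order of Wif1. Single markers of that list differed. Fmod, Tnmd and Mkx fell from replicate 1 to 3. Alpl rose, at 6.01, 7.62 and 9.62 FPKM, the order of Frzb, and Scx was even, at 13.2, 14.1 and 13.7 FPKM. The part of such cells in either level was not tested. Wif1 passed the filter of 0.1 FPKM only through soleus and so had to differ, with a brown minus soleus difference of -0.49 (SE 0.13).

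The makeup of the antagonists differed with the tissue as well as their amount. In brown fat Sfrp2 alone was 47.3% to 56.2% of antagonist FPKM, and in white fat Sfrp2 and Sfrp1 were 32.5% to 54.3% and 22.8% to 25.7%. In soleus Dkk2 was 22.0% to 31.9%, Frzb 21.2% to 29.6% and Sfrp5 17.97% to 30.3%. The ratio of summed antagonist to summed ligand FPKM came to 0.749, 0.693 and 0.792 for the brown fat libraries, to 1.67, 1.98 and 2.42 for white fat and to 0.912, 1.07 and 1.10 for soleus. The tissues did not overlap in this ratio, which library scaling leaves as it is, and no test was made of it.

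The wider pathway was followed through 85 listed genes with a value, of which 63 were tested. Brown fat had 13 higher and 29 lower than white fat with 21 not called, and 29 higher and 19 lower than soleus with 15 not called. White fat had 36 higher and 17 lower than soleus with 10 not called. Their median differences were -0.18, 0.09 and 0.36, beside 0.03, 0.29 and 0.35 for all genes. In the same order of comparisons, 38.0%, 52.9% and 54.5% of all genes were called higher and 34.8%, 25.6% and 29.7% lower. The pathway splits moved with scaling: TPM gave 5 higher and 49 lower between the fats. Notum, Rspo1, Rspo3, Lgr6, Znrf3, Reck, Celsr2, Ptk7, Frat2, Tle2, Nkd1 and Tnfrsf19 passed the filter only through the tissue where they are high and so had to differ. Where values of these genes are given below, they carry no test. The counts by role that follow include them and are descriptions, to be read against the shares of all genes given above.

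The 3 genes that process or release ligands had different orders over the tissues. Wls, which carries Wnt proteins to the cell surface, averaged 32.1 ± 2.00 FPKM (SD, n = 3) in white fat, 13.8 ± 0.625 FPKM in brown fat, whereas soleus had 10.4 ± 0.419 FPKM. Its brown minus white difference was -1.16 (SE 0.07; limma, adjusted p = 1.1e-07). Porcn, which attaches the lipid, had the same order, with means of 6.07, 3.88 and 1.86 FPKM. Notum, a secreted enzyme that removes the lipid and inactivates the ligand, was at 32.5, 38.7 and 33.9 FPKM in soleus and at most 0.264 FPKM in fat.

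R-spondins, which raise receptor levels through Lgr proteins, were divided by tissue. Rspo1 was at 15.8, 13.99 and 11.95 FPKM in white fat and at most 0.440 FPKM elsewhere. Rspo3 was at 4.93, 5.95 and 6.65 FPKM in soleus, 0.600, 0.901 and 0.858 FPKM in white fat and at most 0.114 FPKM in brown fat. Lgr6, an R-spondin receptor, was at 3.80, 13.5 and 10.1 FPKM in brown fat and at most 0.143 FPKM elsewhere. By mean, a different gene led in each tissue, though Lgr4 exceeded Lgr6 in brown fat replicate 1 and Rspo3 in soleus replicate 3. Lgr6 was lowest in brown fat replicate 1, as Fzd4, Fzd7 and Fzd8 were. Lgr4, with the highest mean over all libraries in this group, was highest in white fat at 7.86, 10.8 and 7.42 FPKM and was called against both other tissues, with no call between brown fat and soleus (limma, adjusted p = 0.64).

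All 6 tested genes of the other secreted or membrane regulators were called lower in brown fat than in white, as were 34.8% of all genes. Reck, counted among them, had to differ. It was at 2.685, 2.906 and 3.219 FPKM in white fat and at most 0.742 FPKM elsewhere. Apcdd1, a membrane inhibitor, was at 57.9, 57.8 and 50.3 FPKM in white fat, 1.64, 1.32 and 2.73 FPKM in brown fat and 1.59, 0.805 and 0.626 FPKM in soleus. Kremen1, a receptor that works with Dkk proteins, was at 34.4, 36.7 and 43.1 FPKM in soleus, where Dkk2 was high, and averaged 4.35 ± 0.0431 FPKM (SD, n = 3) in brown fat and 5.75 ± 0.206 FPKM in white fat. Its brown minus soleus difference was -2.86 (SE 0.08; limma, adjusted p = 1.8e-10).

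In the planar polarity branch, 7 genes were tested. Brown fat had 1 higher and 3 lower than white fat, beside 38.0% and 34.8% of all genes. Each fat had 5 higher and 0 lower than soleus, where 52.9% and 54.5% of all genes were called higher. Vangl1, a core polarity protein, averaged 1.396 FPKM in brown fat, 2.46 FPKM in white fat and 0.344 FPKM in soleus. Ptk7, a co-receptor, was at 1.22, 1.15 and 1.37 FPKM in white fat and at most 0.316 FPKM elsewhere. Ryk, a receptor of the tyrosine kinase family, was the most abundant, with means of 13.1, 16.2 and 10.7 FPKM in brown fat, white fat and soleus. Celsr2, an atypical cadherin of the same branch, was at 1.19, 1.14 and 1.08 FPKM in brown fat, 0.731, 0.662 and 0.899 FPKM in white fat and 0.570, 0.428 and 0.936 FPKM in soleus.

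Inside the cell the spread was narrower. Of 21 tested relay and destruction complex genes, brown fat had 8 higher and 3 lower than white fat, beside 38.0% and 34.8% of all genes. Against soleus it had 11 higher and 7 lower, the higher count being close to the 52.9% of all genes. Ctnnb1, the gene of beta-catenin, averaged 96.5 ± 3.74 FPKM (SD, n = 3) in brown fat, 82.3 ± 2.65 FPKM in white fat and 57.4 ± 2.01 FPKM in soleus. Dvl1, which relays the signal from Frizzled, was at 26.0, 29.3 and 29.8 FPKM in soleus and averaged 10.04 FPKM in brown fat and 9.76 FPKM in white fat. Its relative Dvl2 was lower in brown than in white fat (-0.35, SE 0.08; limma, adjusted p = 0.0033). Tnks, whose product marks Axin for breakdown, was higher in white fat than in soleus (0.94, SE 0.07; limma, adjusted p = 3.0e-07). Frat1 and Frat2, which bind the kinase GSK3, went different ways: Frat1 was highest in brown fat (mean 3.38 FPKM) and Frat2 in soleus (mean 3.12 FPKM).

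Of 12 tested nuclear factors, brown fat had 2 higher and 6 lower than white fat, beside 38.0% and 34.8% of all genes. Tcf7l1, a TCF factor known mostly as a repressor, averaged 6.64 FPKM in white fat, 2.67 FPKM in brown fat, against 1.37 FPKM in soleus. Tle3, a corepressor known to act in adipocytes, averaged 19.1 ± 1.89 FPKM (SD, n = 3) in white fat, 11.2 ± 1.43 FPKM in brown fat, against 1.51 ± 0.359 FPKM in soleus. Tle5, a short relative that lacks the repressor part, had the reverse order, with means of 472 FPKM in soleus, 201 FPKM in brown fat and 105 FPKM in white fat. For Tle3 and Tle5 the brown minus soleus differences were 2.29 (SE 0.12; limma, adjusted p = 2.3e-08) and -1.22 (SE 0.10; limma, adjusted p = 9.1e-07).

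Of 9 tested genes commonly induced by beta-catenin, brown fat had 0 higher and 6 lower than white fat, and 1 higher and 5 lower than soleus. White fat had 5 higher and 1 lower than soleus. Over all genes, the shares higher and lower were 38.0% and 34.8% between the fats. Against soleus they were 52.9% and 25.6% for brown fat, and 54.5% and 29.7% for white fat. Axin2, the most widely used readout of canonical signalling, was at 4.67, 6.82 and 6.11 FPKM in brown fat, 8.13, 4.41 and 8.35 FPKM in white fat and 3.49, 2.82 and 3.17 FPKM in soleus. The fats overlapped (-0.18, SE 0.20; limma, adjusted p = 0.42) and both lay above soleus, by 0.71 for brown fat (SE 0.20; limma, adjusted p = 0.0063) and 0.90 for white fat (SE 0.20; limma, adjusted p = 0.0013). Nkd1, a feedback inhibitor, was at 2.64, 1.59 and 2.37 FPKM in white fat and at most 0.222 FPKM elsewhere. For Axin2, Nkd1 and Sfrp5, white fat replicate 2 was the lowest library of its tissue, while for Myc, Ccnd1, Cd44 and Sfrp2 it was the highest. Tnfrsf19 was at 4.24, 4.33 and 4.36 FPKM in soleus and at most 0.208 FPKM in fat, and Cd44, a surface glycoprotein also made by immune cells, was highest in white fat at 3.46, 5.66 and 4.73 FPKM. Lbh, the gene of this group with the highest mean over all libraries, was between 6.52 and 8.82 FPKM throughout and was called in no comparison (limma, adjusted p = 0.39 to 0.93).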

How the data were processed

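Per the labels' protocols, RNA was extracted with TRIzol and libraries were made with the TruSeq RNA v2 kit. Per the submitters' processing notes, TopHat 1.4.1 and Cufflinks 2.0.1 were used on mouse build mm9; reads were not used here. The authors deposited one matrix of FPKM values with 18401 rows of RefSeq accessions and 9 columns. Symbols were matched with a RefSeq gene table (18305 rows) and GENCODE (38); 55 rows without a symbol and 3 with several, 0.0339% to 0.360% of a library's FPKM, were left out. Rows of a symbol were summed; each member had 1 row. Read totals are not given in the sources used here; relative depths came from ratios of values up to 0.1 FPKM, with 35 of 36 library pairs within 0.03 log2 units.

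All 9 libraries were fitted on log2(FPKM + 1) in limma 3.58.1 (R 4.3.3; mean-variance trend, 6 residual degrees of freedom) for genes that reached 1 FPKM in 3 or more libraries. Tests were two-sided, with Benjamini-Hochberg adjustment within each comparison over all 9913 genes and a call at adjusted p under 0.05. The fit was tested on simulated data. The 19 alternatives covered pseudocount, filter, scaling, replicate block, rows per symbol, tissues in the fit and each library left out. Members, pathway lists and marker lists were chosen with earlier results of these data known. Every member was named. From each pathway list came the called gene with the largest difference in each direction and comparison, and the gene with the highest mean; other names were chosen after values were seen. Promoters are from RefSeq (GRCm38.p6), used for sequence and neighbouring or overlapping genes only.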

Additional observations from a re-analysis of the deposited data

How the results depend on the processing

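Recomputed counts stayed within 1.5 times the reported value in 327 cases and moved further in 15. With TPM, members higher in brown than in white fat went from 3 to 0, pathway genes higher from 13 to 5 and lower from 29 to 49, and all genes higher from 3769 to 1795 and lower from 3446 to 6133. TPM also gave 10 pathway genes (17 before) and 1869 of all genes (2948 before) lower in white fat than in soleus. For brown fat above soleus, upper quartile and median of ratios scaling each gave 5 members (8 before) and 15 and 14 pathway genes (29 before). Median of ratios scaling gave 29 pathway genes (19 before) and 3867 of all genes (2535 before) lower in brown fat than in soleus, and 22 pathway genes (36 before) higher in white fat than in soleus. With no filter 13 members (8 before) were lower in white fat than in soleus, over 35 members tested. Direction reversed for Lrp6 between the fats with TPM (-0.34), for Lrp5 between brown fat and soleus with upper quartile (-0.27) and median of ratios scaling (-0.30), and for Wnt11 between white fat and soleus with TPM (0.0149). The cause was not tested. Calls held in all 19 alternatives for 14 of 17 members between the fats, 13 of 20 between brown fat and soleus and 19 of 20 between white fat and soleus. With 1 library left out, members higher and lower numbered 2 to 3 and 14 to 15 between the fats, 6 to 9 and 10 to 12 for brown fat against soleus, and 12 to 13 and 7 to 9 for white fat against soleus.

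The labels number the libraries 1 to 3 in each tissue. Residuals of same-numbered libraries correlated at -0.22 to 0.08 in 9 pairs, with 0 above 0.1, and 0 libraries correlated best with their own number in both other tissues. With so few libraries in a tissue, this cannot decide whether same-numbered libraries share a mouse. With the replicate number as a block, members higher and lower were 4 and 14 between the fats, 7 and 12 for brown fat against soleus, and 12 and 8 for white fat against soleus. Depth is known only as a ratio between libraries, so no counting error could be given for genes at or near 0.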
